A study of Rattus norvegicus with 10 samples.

Results

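The genes described here mark mast cells, and their RNA was measured in white fat from 10 male rats aged 13 weeks, with 1 expression array per animal. The members are Kit, Cpa3, Fcer1a, Ms4a2, Hdc, Cma1, Tpsb2 and Tpsab1, and every probe set whose platform annotation gives 1 of these symbols alone was taken. This found 9 probe sets for the 8 genes, among 31042 probe sets and 14217 named genes on the array. The noodle group of 5 rats (animals 1, 4, 7, 10 and 13) ate a diet with 30% instant noodle by weight, seasonings included, in which 26% of the energy came from fat. The control group of 5 rats (animals 2, 5, 8, 11 and 14) is described as given that diet with the seasonings left out. All 10 rats were pair-fed, at a daily ration near 60 g per kg of rat, with free water and 12 hours of light, for 30 days in one label and 4 weeks in another. The sources used here do not give the strain or the fat depot.

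Mast cells are tissue-resident immune cells of the blood lineage, and in fat they lie in the connective tissue and along vessels. They depend on the receptor KIT for survival. They carry the high-affinity IgE receptor on their surface, built from an alpha chain (Fcer1a), a beta chain (Ms4a2) and a gamma chain (Fcer1g) that other immune cells also make. Their granules hold histamine, made by histidine decarboxylase (Hdc), together with carboxypeptidase A3 (Cpa3), chymase (Cma1) and the tryptases (Tpsab1 and Tpsb2), all bound to proteoglycan. In a piece of whole tissue, fewer mast cells and less RNA per mast cell cannot be told apart.

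The deposited values were read as log2 because of the span they cover, and folds given here depend on that reading. Most of the values hardly vary. Of the 31042 probe sets, 2607 (8.4%) had an SD over the 10 arrays above 0.01 and are called variable here, and the others are called flat. Among the members, Cpa3, Cma1, Tpsab1, Tpsb2 and Fcer1a each had 1 variable probe set, while Kit, Hdc and both probe sets of Ms4a2 were flat. The division did not run close to any member. The lowest SD of a variable member was 0.158 (Tpsb2) and the highest SD of a flat one was 0.000286 (Ms4a2).

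The label gives white adipose tissue, while the extraction text names a brain sample. The median level was 11.8 over 19 adipocyte markers and 5.74 over 19 brain markers, with array medians between 6.17 and 6.18. Control animal 14 stood apart, with a mean correlation with the other arrays of 0.9948, against 0.9959 to 0.9969 in the other 9 animals. The difference between the 3-prime and 5-prime control probe sets of Actb and Gapdh, which moves with RNA quality, averaged 0.84 ± 0.07 in noodle rats against 0.95 ± 0.08 in control rats (SD, n = 5 each, two-sided exact permutation p = 0.0476).

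The promoters of the 5 variable genes are shown because these genes are the ones whose values moved together over the animals. Each run is the 250 bases before the annotated start in the RefSeq table of build GRCr8, read 5′ to 3′ on the gene's strand. The capitals mark a GATA hexamer, that is the letters GATA with A or T before them and A or G after them, on either strand. The table held 7 of the 8 members.
Cpa3, chr2:104673238-104673487, minus strand: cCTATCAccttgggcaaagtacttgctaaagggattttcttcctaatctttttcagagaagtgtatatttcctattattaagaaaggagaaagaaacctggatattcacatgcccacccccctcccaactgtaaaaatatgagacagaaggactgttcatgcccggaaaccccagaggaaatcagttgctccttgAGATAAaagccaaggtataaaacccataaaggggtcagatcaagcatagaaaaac
Cma1, chr15:33390134-33390383, minus strand: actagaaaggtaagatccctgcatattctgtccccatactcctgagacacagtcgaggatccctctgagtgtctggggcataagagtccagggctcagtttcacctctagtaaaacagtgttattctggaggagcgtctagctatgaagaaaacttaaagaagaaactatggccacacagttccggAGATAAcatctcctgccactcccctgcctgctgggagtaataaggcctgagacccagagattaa
Fcer1a, chr13:88224680-88224929, minus strand: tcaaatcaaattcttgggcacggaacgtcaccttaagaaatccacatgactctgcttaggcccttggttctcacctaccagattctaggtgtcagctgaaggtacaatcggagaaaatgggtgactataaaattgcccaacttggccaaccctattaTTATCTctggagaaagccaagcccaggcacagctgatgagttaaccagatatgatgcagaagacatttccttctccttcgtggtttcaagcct
Tpsab1, chr10:14867303-14867552, minus strand: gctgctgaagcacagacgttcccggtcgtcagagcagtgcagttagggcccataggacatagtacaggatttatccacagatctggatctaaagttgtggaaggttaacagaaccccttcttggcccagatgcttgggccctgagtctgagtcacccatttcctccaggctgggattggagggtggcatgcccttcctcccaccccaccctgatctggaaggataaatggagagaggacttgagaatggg
Tpsb2, chr10:14886060-14886309, plus strand: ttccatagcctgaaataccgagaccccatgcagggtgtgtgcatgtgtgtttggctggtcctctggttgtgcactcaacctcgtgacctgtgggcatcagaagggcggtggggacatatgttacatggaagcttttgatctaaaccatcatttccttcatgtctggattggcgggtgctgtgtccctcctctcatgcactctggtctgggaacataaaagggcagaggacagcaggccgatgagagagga

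GATA2 is a transcription factor that mouse mast cells need, which is why its letters were searched. The hexamer stood in 3 of these 5 windows. It began 55 and 249 bases before the start in Cpa3, 64 bases before it in Cma1 and 93 bases before it in Fcer1a. It was not in the windows of Tpsab1 and Tpsb2, nor in those of Kit and Hdc. Of 33469 rat promoter windows of the same length, 27.0% held it. The letters CACATG on either strand are a form of the E-box that the mast cell factor MITF binds. They stood in 3 of the 5 windows, those of Cpa3, Fcer1a and Tpsb2, and in 12.1% of all windows. In these 3 they did not overlap the GATA hexamers, and the windows of Kit and Hdc lacked them. Other letters searched were CANNTG (N for any base), in 4 of the 5 windows and 65.5% of all. CAGCTG stood in 1 of the 5 (12.0% of all) and TATAAA in 2 (12.9%). A match is a description of the letters and not of binding. Tpsab1 and Tpsb2 are neighbours on chromosome 10, with no other annotated gene between them. They are related tryptases, and how far their probe sets share signal was not tested.

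The granule proteases among the variable members were Cpa3, Cma1, Tpsab1 and Tpsb2. Cpa3, a carboxypeptidase that trims peptides and toxins in mast cell granules, stood at 8.49, 9.02, 8.53, 8.53 and 8.43 in noodle animals 1, 4, 7, 10 and 13, against 8.46, 8.41, 8.84, 8.84 and 9.28 in control animals 2, 5, 8, 11 and 14. Noodle animal 4 was far above the other noodle rats, control animal 14 was the highest of all, and the groups overlapped. The spread from the lowest to the highest animal was 1.83-fold.

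Cma1, the chymase, a serine protease stored in the same granules, stood at 7.44, 8.20, 7.69, 7.53 and 7.67 in noodle animals 1, 4, 7, 10 and 13, against 7.73, 7.85, 7.88, 8.14 and 8.50 in control animals 2, 5, 8, 11 and 14. The groups overlapped only through noodle animal 4, and 4 of 5 noodle rats lay below every control. How many variable probe sets did the same was not counted. Groups without any overlap, which Cma1 did not have, were found in 0.614% of the 2607 variable probe sets with noodle lower and 0.345% with noodle higher. Its 2.09-fold spread over the animals was the widest of the 5 variable members.

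Tpsab1, the tryptase also listed as Mcpt7, stood at 7.41, 7.80, 7.10, 7.11 and 7.18 in noodle animals 1, 4, 7, 10 and 13, against 7.59, 7.12, 7.57, 7.67 and 7.83 in control animals 2, 5, 8, 11 and 14. Here control animal 5 was low, among the noodle rats, and noodle animal 4 was high, among the controls. Tpsb2, the tryptase also listed as Mcpt6, stood at 6.99, 7.09, 6.85, 6.88 and 6.96 in noodle animals 1, 4, 7, 10 and 13, against 6.92, 6.89, 7.02, 7.18 and 7.36 in control animals 2, 5, 8, 11 and 14. The groups overlapped, and control animals 11 and 14 lay above every noodle rat.

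The IgE receptor was represented by Fcer1a, the chain that binds IgE. It stood at 6.27, 6.65, 6.45, 6.11 and 6.16 in noodle animals 1, 4, 7, 10 and 13, against 6.23, 6.21, 6.54, 6.35 and 6.71 in control animals 2, 5, 8, 11 and 14. The groups overlapped over most of their range. Control animal 14 was the highest of 10 and noodle animal 4 the highest noodle rat in 5 of 5 variable members, a pair of extremes found in 15.9% of the 2607 variable probe sets. They were the 2 highest of all 10 animals in 4 of 5 members, the exception being Tpsb2, and in 9.86% of the variable probe sets.

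**Figure D1:**
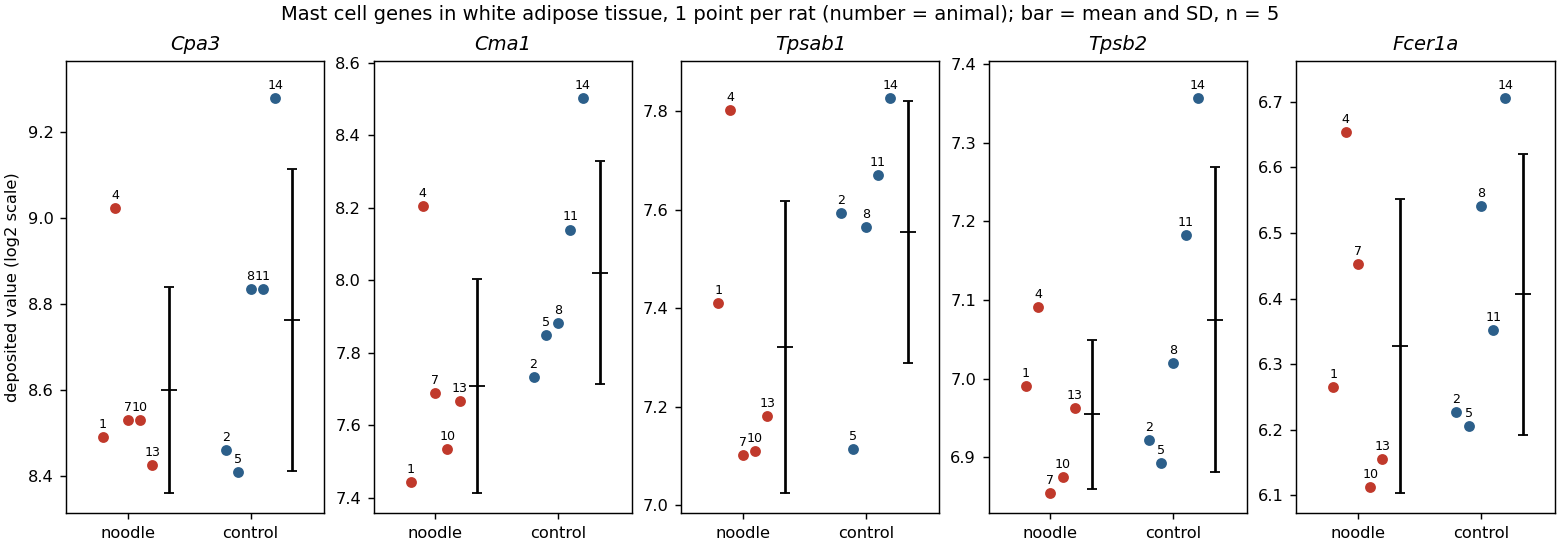
Deposited log2 values (vertical axis, one scale per gene) of the 5 variable mast cell genes in the noodle group (left) and the control group (right). Each point is 1 rat with its animal number, and the bars give the mean and SD of 5 rats. Animal 14 is the highest control and animal 4 the highest noodle rat in each panel.

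The flat members gave a level but no readable difference. Kit, the receptor for stem cell factor, lay between 5.9999 and 6.0003 over the 10 arrays. Hdc had a mean of 6.60, and the 2 probe sets of Ms4a2 had means of 5.95 and 5.63. The table holds no detection calls, so whether these values are above background is not known, and levels of different probe sets cannot be set against each other.

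No member passed the test between the diets. By the labels, the comparison sets the diet with seasonings against the same diet without them. It was fitted with limma over all 31042 probe sets, of which 0 (0%) reached a Benjamini-Hochberg adjusted p of 0.05, the lowest adjusted p being 0.409. At an unadjusted p under 0.05, limma found 4.77% of all probe sets, 8.13% of the variable ones (5.33% lower in noodle rats) and 0 of the 9 member probe sets. The differences of the 5 variable members were all below 0, with a median of -0.16, and 55.4% of the variable probe sets were below 0, with a median of -0.01.

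Cma1 averaged 7.71 ± 0.30 in the noodle group and 8.02 ± 0.31 in the control group (SD, n = 5 each), a difference of -0.31 ± 0.18 (SE) with a 95% interval of -0.73 to 0.11 and an adjusted p of 0.993 in limma. Read as log2, this is a ratio of 0.805 between the geometric means of noodle and control rats. The interval reaches further below 0 than above it. Tpsab1 averaged 7.32 ± 0.30 in the noodle group and 7.55 ± 0.27 in the control group, a difference of -0.23 ± 0.17 (interval -0.63 to 0.16). Cpa3 averaged 8.60 ± 0.24 in the noodle group and 8.76 ± 0.35 in the control group, a difference of -0.16 ± 0.18 (interval -0.58 to 0.26). The intervals of these 3 proteases hold 0. Tpsb2 differed by -0.12 ± 0.09 (interval -0.33 to 0.09) and Fcer1a by -0.08 ± 0.13 (interval -0.38 to 0.23), each with an adjusted p of 0.993 in limma.

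Leaving out either extreme animal moved these differences, in opposite ways. Without noodle animal 4 the noodle minus control difference was -0.27 for Cpa3, -0.44 for Cma1, -0.35 for Tpsab1, -0.15 for Tpsb2 and -0.16 for Fcer1a. Without control animal 14 it was -0.03 for Cpa3, -0.19 for Cma1, -0.16 for Tpsab1, -0.05 for Tpsb2 and -0.004 for Fcer1a. No member passed the threshold either way. The unadjusted limma p without noodle animal 4 was 0.026 for Cma1, 0.041 for Tpsab1 and above 0.05 for the others. Animal 4 was the highest noodle rat in 5 of 5 variable members, so leaving it out lowers the noodle mean of each. Without control animal 14 it was above 0.05 for each. With the 3-prime to 5-prime difference as a covariate, the differences were -0.34 ± 0.23 for Cpa3, -0.47 ± 0.24 for Cma1, -0.37 ± 0.22 for Tpsab1, -0.25 ± 0.11 for Tpsb2 and -0.21 ± 0.17 for Fcer1a, with adjusted p of 0.745 to 0.831 in limma. The unadjusted limma p with this covariate was 0.048 for Tpsb2 and above 0.05 for the others. The share of all probe sets under 0.05 was not counted in these refits, so their unadjusted p are given only as a description. The part of RNA quality in the diet difference was not tested beyond this fit.

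**Figure D2:**
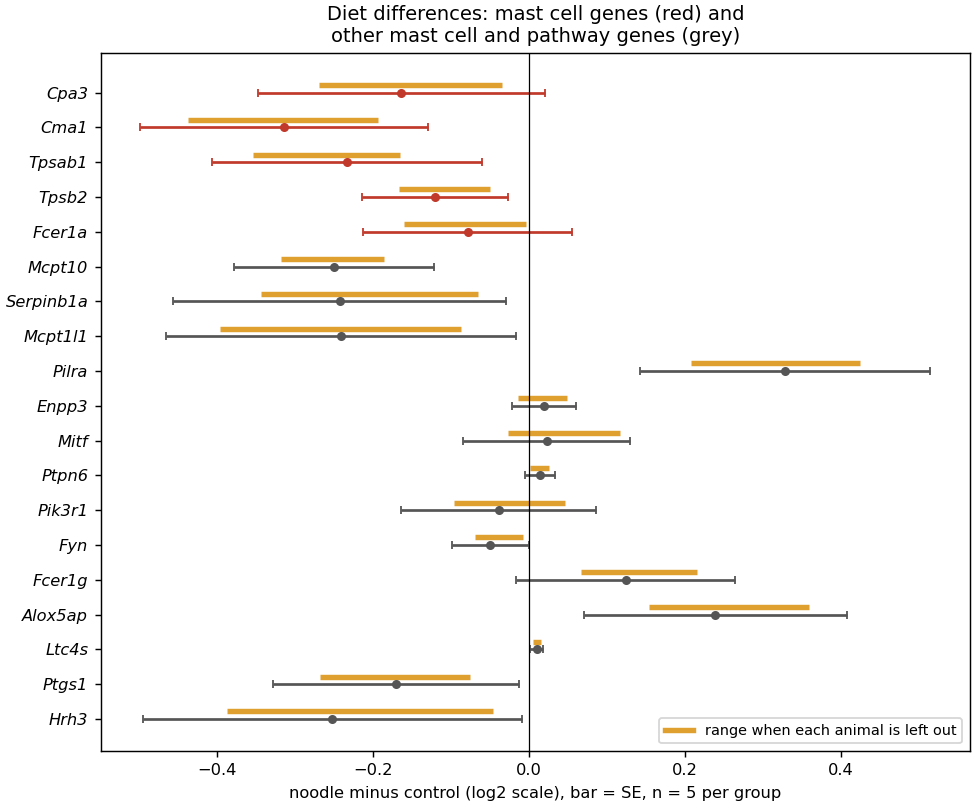
Difference between the diets (noodle minus control, log2 scale, horizontal axis) for the 5 variable mast cell genes in red and for other mast cell and pathway genes in grey. Points and black or red bars give the limma estimate and its SE, and the yellow bars the range when each animal is left out in turn. The 5 red points lie between -0.31 and -0.08, and no gene shown passed the threshold.

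The 5 variable members were high and low in the same animals. Over the 10 pairs of these genes, Pearson's r lay between 0.682 and 0.892 with a median of 0.817, and Spearman's rho between 0.648 and 0.915 with a median of 0.691. All 10 pairs passed a two-sided permutation test of r with 100000 resamples and adjustment over the 10 pairs, with adjusted p of 0.00355 to 0.0262. All 10 also passed for rho, with adjusted permutation p of 0.0054 to 0.0496. The members were chosen with earlier results of these data known, so these p describe the pairs and are not an independent test. The strongest link was between Cpa3 and Cma1 (r = 0.892, rho = 0.661). That of the 2 neighbouring tryptases was r = 0.818 with the highest rho, 0.915. The weakest was between Tpsb2 and Fcer1a (r = 0.682, rho = 0.648). Measures of the arrays ran with these genes too. The mean of the 5 genes, each in SDs from its own mean, was compared with them. It had r = -0.765 (rho = -0.709) with each array's mean correlation with the other arrays, and 0.786 (rho = 0.467) with the array median. With the 3-prime to 5-prime difference r was -0.074 (rho = 0.127). The part of these array measures in the shared pattern was not tested.

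Pairs this alike were uncommon but not rare on these arrays. Among 3396921 pairs of variable probe sets the median r was 0.041, 4.76% reached the lowest r of the member pairs and 1.14% reached their median. The correlations were as high within the diets. After each group's mean was subtracted, r lay between 0.672 and 0.902, and all 10 pairs passed an exact test of 14400 permutations within the groups (adjusted p = 0.0111 to 0.0494). These p carry the same limit from how the members were chosen.

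Most pairs had a lower r when animals were left out. Without the 2 animals farthest from the median of the first gene of a pair, r was between 0.428 (Cma1 and Fcer1a) and 0.82 (Tpsab1 and Fcer1a) with a median of 0.653. Of the 10 pairs, 3 had an unadjusted exact permutation p under 0.05 with these 8 animals, and 0 passed after adjustment (lowest adjusted p = 0.121). In 7 of the pairs the 2 animals were noodle animal 4 and control animal 14, but for the 2 pairs with Tpsab1 as first gene they were noodle animals 7 and 10, and Tpsab1 and Fcer1a then had a higher r than with all 10 animals. Without noodle animal 4 and control animal 14 in every pair, r was between 0.305 (Tpsb2 and Fcer1a) and 0.77 (Tpsab1 and Tpsb2) with a median of 0.649, and that of Tpsab1 and Fcer1a was 0.403. Without control animal 14 alone, 5 of the 10 pairs passed. The sign was positive in all of these.

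**Figure D3:**
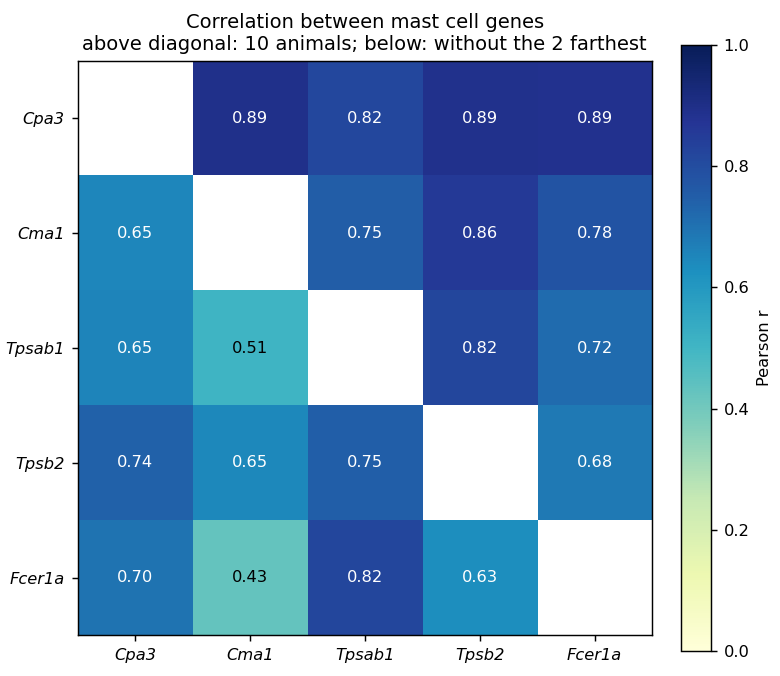
Pearson's r between the 5 variable mast cell genes over the 10 animals (above the diagonal) and over the 8 animals left when the 2 farthest from the median are left out (below it). Color runs from 0 to 1. The values lie between 0.68 and 0.89 above the diagonal and between 0.43 and 0.82 below it.

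Flat probe sets are not read as differences, and the order of their values is given only as a description. The first Ms4a2 probe set, with a range of only 0.000605 over the 10 arrays, was highest in control animal 14 and next highest in noodle animal 4. Its r with the mean of the 5 standardised variable members was 0.946 (rho = 0.661), a value that 0.0106% of the 28435 flat probe sets reached. The second Ms4a2 probe set had an r of 0.548, Hdc 0.599 and Kit 0.001, and the middle 90% of flat probe sets lay between -0.612 and 0.616. Of the 4 flat member probe sets, only the first of Ms4a2 thus lay outside that span. Its r without noodle animal 4 and control animal 14 is not given here.

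Outside the members, the 12 genes most like them were ranked by r with the same mean of standardised values, over 10 animals and all variable probe sets. No p is given, as the members were chosen with results known. Of the 2607 variable probe sets, 3.8% had an r of 0.8 or more, members included, 62.1% had an r above 0 and 1.65% had an r of -0.8 or less. The closest was Mcpt1l1, a mast cell protease gene of the rat on chromosome 15, where Cma1 also lies, with r = 0.959 (rho = 0.83) and 0.852 without noodle animal 4 and control animal 14. Mcpt1l1 stood at 8.76, 9.60, 8.85, 8.79 and 8.91 in noodle animals 1, 4, 7, 10 and 13, against 9.09, 8.84, 9.05, 9.31 and 9.84 in control animals 2, 5, 8, 11 and 14. It had the same extreme animals as the members, and the groups overlapped.

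Serpinb1a, an inhibitor of granule serine proteases, followed Mcpt1l1 and Ackr3 in rank, with r = 0.935 (0.815 without the same 2 animals). It stood at 7.74, 8.38, 8.01, 7.79 and 7.97 in noodle animals 1, 4, 7, 10 and 13, against 7.94, 7.91, 8.06, 8.27 and 8.93 in control animals 2, 5, 8, 11 and 14. Its other probe set, also variable, did not follow as closely (r = 0.417), so the gene's result rests on 1 of 2 probe sets.

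The other 10 are known from cells beyond mast cells. They were Ackr3, a chemokine receptor without G protein signalling (r = 0.946), Timp2, an inhibitor of matrix metalloproteases (0.929), Iqgap1, a cytoskeletal scaffold (0.925), and Cdc42ep3, a Cdc42 effector (0.913). Plpp3, a lipid phosphatase, had an r of 0.913, Rnase4 0.905, the focal adhesion gene Pxn 0.902, Slfn5 0.897, Calml4 0.892 and the peptidase Dpp4 0.889. Control animal 14 was highest of the 10 animals in all 12. Without noodle animal 4 and control animal 14, r was between 0.62 (Pxn) and 0.939 (Cdc42ep3). Of the other variable probe sets of these genes, that of Dpp4 had an r of 0.815, that of Rnase4 0.795, that of Timp2 0.676 and those of Plpp3 0.61 and 0.361.

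**Figure D4:**
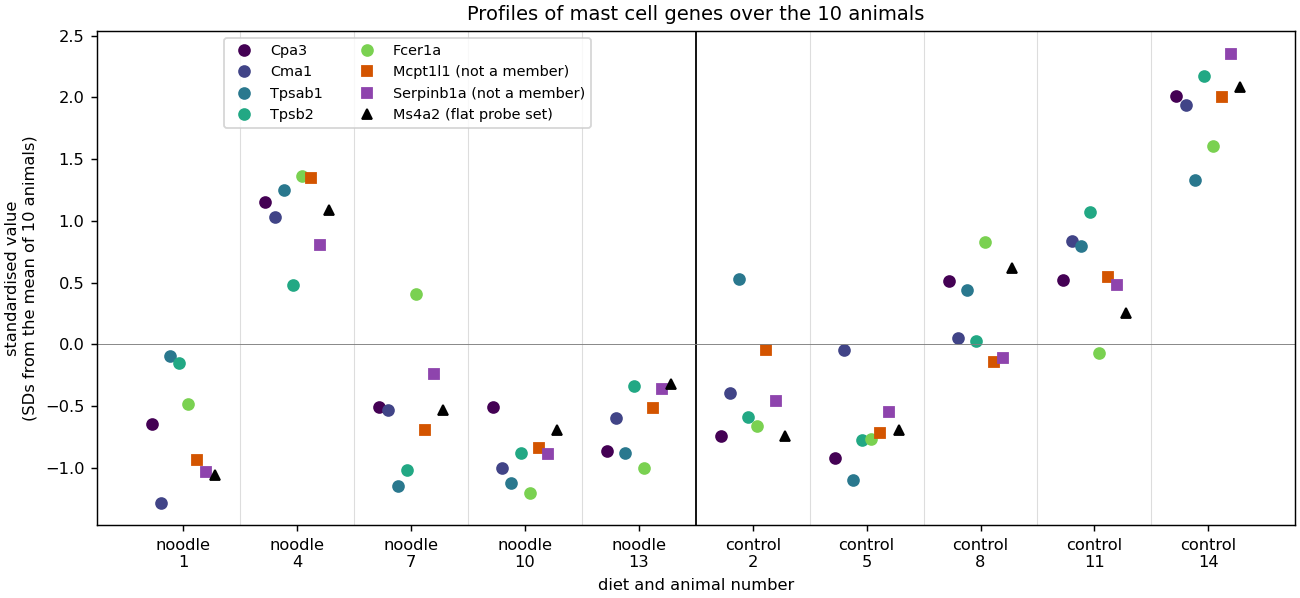
Standardised values (SDs from each gene's mean over the 10 animals, vertical axis) in the 5 noodle rats (left) and the 5 control rats (right). Circles are the 5 variable mast cell genes, squares Mcpt1l1 and Serpinb1a, and triangles the flat Ms4a2 probe set. Standardising hides that this flat probe set had a range of only 0.000605. All 8 are above 0 in noodle animal 4 and control animal 14. The squares were picked from the genes most like the members. The triangles show the flat member probe set with the highest r of 4, and the other flat ones are not shown.

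Other mast cell genes were flat more often than not, as were the 31042 probe sets, of which 8.4% were variable. Of 17 measured other granule genes, 3 were variable, Mcpt1l1, Serpinb1a and Mcpt10, and 0 passed in either direction in limma. All 3 differences were below 0, with -0.24 ± 0.22 for Mcpt1l1, -0.24 ± 0.21 for Serpinb1a (0.15 ± 0.09 in its other probe set) and -0.25 ± 0.13 for Mcpt10 (SE, n = 5 each). Mcpt10, another rat mast cell protease, did not follow the members (r = -0.018). Flat granule genes included Srgn, the core protein of the granule proteoglycan, and Slc18a2, the transporter that loads histamine.

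Of 16 measured other surface and transcription factor genes, 3 were variable and 0 passed. Mitf, a transcription factor needed for mast cell development in the mouse, differed by 0.02 ± 0.11 and had r = -0.355 with the members. Its second probe set differed by -0.18 ± 0.15 with r = 0.253, so its probe sets disagreed in sign. Enpp3, a surface enzyme of mast cells and basophils, differed by 0.02 ± 0.04, and Pilra, an inhibitory receptor of myeloid cells, by 0.33 ± 0.19 with r = -0.272. Gata2 was flat.

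Among the KIT pathway genes, 2 of 17 measured were variable and 0 passed. Pik3r1, a regulatory subunit of the lipid kinase below KIT, differed by -0.04 ± 0.13, and the phosphatase gene Ptpn6 by 0.01 ± 0.02. The ligand gene Kitlg was flat. In IgE receptor signalling 2 of 16 measured genes were variable and 0 passed. Fyn, a kinase of the receptor, differed by -0.05 ± 0.05 and followed the members (r = 0.821, but 0.355 without noodle animal 4 and control animal 14). Fcer1g, the shared gamma chain, differed by 0.12 ± 0.14 with r = 0.51. It stood at 9.36, 9.48, 9.38, 8.90 and 9.21 in noodle animals 1, 4, 7, 10 and 13, against 9.11, 8.94, 9.27, 8.92 and 9.48 in control animals 2, 5, 8, 11 and 14. Noodle animals 1 and 7 thus lay above the mean of all 10 animals here and below it for Cpa3 and Cma1.

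In histamine and eicosanoid handling 6 of 14 measured genes were variable and 0 passed. Ptgs1, the constitutive cyclooxygenase, had an r of 0.848 (0.632 without the same 2 animals) and differed by -0.17 ± 0.16. The leukotriene genes Alox5ap and Ltc4s differed by 0.24 ± 0.17 and 0.01 ± 0.01, and the histamine receptor gene Hrh3 by -0.25 ± 0.24 with r = -0.329.

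Markers of other cells moved with the members to different degrees, and their part in the members' pattern was not tested. The fibroblast and adipose progenitor list, with 9 of 11 measured genes variable, had a list mean that correlated with the members at r = 0.688 (rho = 0.624), but at 0.13 without noodle animal 4 and control animal 14. The mesothelial list had r = 0.684 (rho = 0.321, and r = 0.511 without those 2). An r above 0 was found in 9 of 9 variable mesothelial genes, 9 of 9 fibroblast genes and 17 of 17 macrophage genes. Of all variable probe sets, 62.1% had an r above 0. The mesothelial list mean, in SDs, ran from -1.11 to 0.35 in noodle rats, against -1.15 to 1.58 in control rats. All 9 mesothelial genes had a noodle minus control difference below 0 (median -0.28), of which 0 passed in limma. The fibroblast list mean ran from -0.55 to 1.43 in noodle rats, against -0.89 to 0.89 in control rats. Both lists thus overlapped between the diets. The macrophage list, with 17 of 19 measured genes variable and 16 of them with a noodle minus control difference above 0 (0 passed in limma), had r = 0.444 and -0.216 without them, the endothelial list 0.447 and 0.342, and the smooth muscle and pericyte list 0.291 and -0.156. The red blood cell list had an r of 0.076, and all 4 of its variable genes had a noodle minus control difference below 0 (median -0.31). Of these 0 passed in limma, and 2 had an unadjusted p under 0.05. That number was 1 in the mesothelial list (Krt8) and 0 in the macrophage list. Of all variable probe sets, 55.4% had a difference below 0 and 8.13% an unadjusted limma p under 0.05. Genes of 1 list can share a profile, so these counts are not of independent genes. The adipocyte list, with 12 of 19 measured genes variable, ran the other way, with r = -0.829 (rho = -0.879) and -0.66 without the 2 animals. Over its 12 variable genes r ran from -0.817 to 0.341 with a median of -0.462, and 2 were above 0. The lowest were Gpd1, an enzyme of glycerol phosphate synthesis, and Acsl1, which activates fatty acids. Gpd1 had r = -0.817 (-0.457 without the 2 animals) and Acsl1 -0.762 (-0.27 without them). These correlations share the arrays and the 2 extreme animals with the members', and the median r over all variable probe sets was 0.185.

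The counts for blood relatives of mast cells and for melanocytes stand beside the array's own 8.4% of variable probe sets, and lists this short can have none. Of 8 measured basophil and eosinophil genes, only Siglec5 was variable, with r = 0.005, and the basophil protease gene Mcpt8 was flat. None of the 6 measured melanocyte markers, from another cell type that uses KIT, was variable, and none of the 11 measured T and B lymphocyte markers was.

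**Figure D5:**
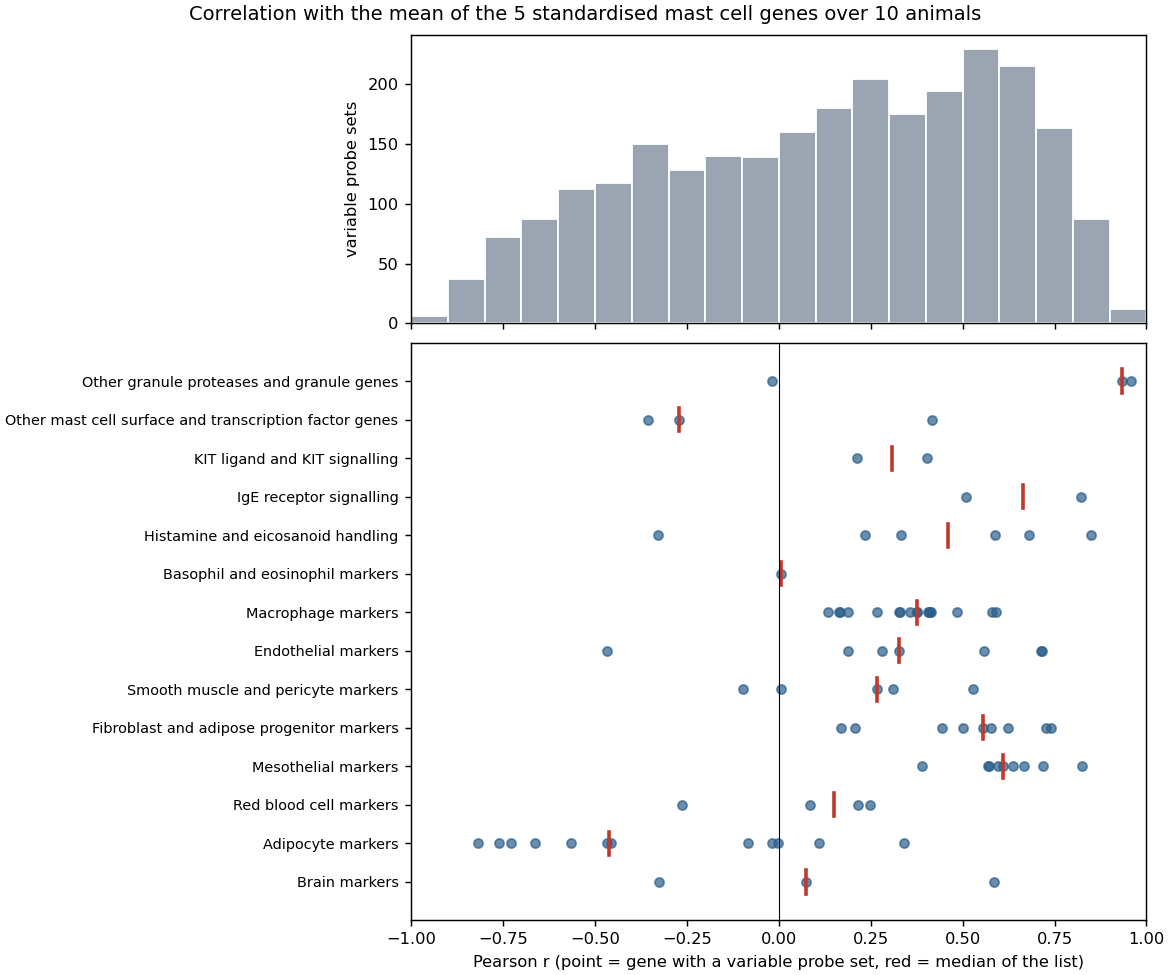
Pearson's r with the mean of the 5 standardised mast cell genes over 10 animals (horizontal axis). Bars count the 2607 variable probe sets, members included, in steps of 0.1, and below them each point is a gene with a variable probe set, in rows by list, with the list's median in red. Of the list genes, Mcpt1l1 and Serpinb1a lie farthest to the right, and most adipocyte markers lie left of 0.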

How the data were processed

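White adipose tissue RNA of 10 rats was hybridised as biotin-labelled cRNA made from 100 ng of total RNA, per the labels' protocols. The deposited table gives each probe set's level in each array, and these values were read as log2 because of the span they cover. The sources used here do not give the authors' background correction, summarisation, normalization or log base, and why most values are nearly constant is not known, so sizes of differences hold on the deposited scale only. The 57 array control probe sets were left out of the tests. Gene names come from the platform annotation, and all 8 members matched the RefSeq table by gene identifier. Groups follow the sample titles. They share no animal numbers and the labels name no fed pairs, so no block was used.

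The test between diets was limma's moderated one (version 3.58.1, R 4.3.3, two-sided, noodle minus control, Benjamini-Hochberg over all 31042 probe sets, threshold 0.05). Correlations used numpy 2.4.6 in Python 3.11.15. A gene in a list was represented by its variable probe set with the highest mean. The scripts were tested on simulated data. Members and lists were chosen with earlier results of these data known. The named genes were all members, the 12 genes most like their mean, and up to 4 variable genes with the smallest p from each of the 5 mast cell and pathway lists; other named genes were picked from the lists after their values were seen. Alternatives were quantile normalization, centring, filters, a floor, an intensity trend, array weights, a covariate and leaving out each animal. The precision is limited by 5 arrays per group.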

Additional observations from a re-analysis of the deposited data

Results flagged for a closer look

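Named genes, marker list averages and measures of the arrays were examined in 90 groups of 5 animals. A single animal lay far from the remaining 4 in 12 of them, and by chance 1 in 20, or 4.5, would be found. Most came from noodle animal 4, and the groups are not independent, since many of these genes were chosen for following the same animals. Among members, Cpa3 stood at 9.023 in that animal, with 8.43 to 8.53 in the remaining noodle rats. The mean of the standardised members was 1.055 in it and -0.945 to -0.532 in the rest of its group. Of the genes most like the members, noodle animal 4 stood apart in Mcpt1l1 at 9.6 (8.76 to 8.91 in the others), Timp2 at 10.67 (10.2 to 10.3), Cdc42ep3 at 7.893 (7.54 to 7.64), Plpp3 at 8.562 (8.24 to 8.31) and Pxn at 8.42 (8.08 to 8.17). The list mean of smooth muscle and pericyte markers was 0.8655 in it, against -0.456 to -0.229.

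In control animal 14, Pilra stood at 7.185 against 7.70 to 7.85 in the other controls, the list mean of KIT signalling at 1.575 against -0.699 to -0.138 and the mean correlation with the other arrays at 0.9948 against 0.9959 to 0.9963. The KIT signalling mean, over 2 variable genes, was also apart in noodle animal 13, at 1.168, with the remaining noodle rats between -0.334 and -0.0542.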

How the results depend on the processing

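The 5 members' differences kept their sign and missed the threshold under all alternatives run. Leaving out each animal gave -0.269 to -0.0347 for Cpa3, -0.437 to -0.193 for Cma1, -0.353 to -0.165 for Tpsab1, -0.166 to -0.0498 for Tpsb2 and -0.16 to -0.00354 for Fcer1a. The count of probe sets past the threshold was 0 to 1 then, the 1 arising without control animal 14. The median r of the 10 pairs was 0.74 to 0.867, and 5 to 10 pairs passed, 5 without control animal 14; the cause was not tested beyond the smaller number of animals.

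No member changed sign, but 6 other named genes did. With the 3-prime to 5-prime covariate the differences were -0.0251 for Ptpn6, -0.0889 for Fcer1g (0.12 without it) and 0.0504 for Hrh3 (-0.25 without it), and with array weights 0.0297 for Pik3r1. Leaving out animals gave -0.0133 to 0.0489 for Enpp3, -0.0272 to 0.117 for Mitf and -0.0965 to 0.0461 for Pik3r1. The cause was not tested. Without the dimmest 50% of probe sets, Mcpt10 was not tested. No paired analysis was possible because no animal number occurs in both diets and no label names the rats fed as a pair.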

Other observations

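The genes that ran most against the members were picked after their values were seen, as the 7 lowest by r, and no list or share of genes of any function was tested. Of the 2607 variable probe sets, 1.65% had an r of -0.8 or less with the members' mean. The lowest were Kgd4 (r = -0.933), a subunit of the oxoglutarate dehydrogenase complex, and Dnaaf9 (-0.918). Next came the respiratory chain genes Ndufb9 (-0.91), Uqcrfs1 (-0.91), Sdhd (-0.904) and Ndufv1 (-0.896), and the ATP synthase gene Atp5po (-0.905). Control animal 14 was the lowest of the 10 animals in all 7. Uqcrfs1 stood at 10.30, 9.97, 10.28, 10.20 and 10.42 in noodle animals 1, 4, 7, 10 and 13, against 10.13, 10.36, 10.18, 10.04 and 9.67 in control animals 2, 5, 8, 11 and 14. Without noodle animal 4 and control animal 14, r for these genes was between -0.782 and -0.683. None of them differed between the diets at the threshold in limma, with differences of 0.05 to 0.16.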
